A study of Homo sapiens with 6 samples.

Results

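The tip of the short arm of chromosome 19 is one of the gene-rich stretches of the human genome, and the RNA immunoprecipitation peaks of the splicing factor SF3B4 that lie there are described here. A peak belonged to the stretch when its midpoint lay between the first base of chromosome 19 and a point 0.2 Mb short of position 20 Mb in the genome build hg19, to which all positions below refer. The rule uses no measured value other than position, but the stretch was chosen with earlier results of these data known. The 4 deposited peak lists held 1304 such peaks of 181131 in all. The RIP-1 experiment had 329 of 10960 peaks of its mRNA list and 305 of 25797 peaks of its non-exon list in the stretch. The RIP-2 experiment had 103 of 10280 and 567 of 134094.

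SF3B4 is a subunit of SF3b, a part of the U2 small nuclear ribonucleoprotein. During splicing SF3b holds the branch site of the intron, close upstream of the 3′ splice site, and SF3B4 contacts the precursor RNA next to it. A protein of this kind meets RNA while introns are still present, so both exons and introns of a transcript can be recovered with it. Gene-rich stretches such as the short arm of chromosome 19 are known for many short, highly transcribed genes with short introns and a high share of G and C.

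The libraries came from wild-type HEK293T, an established line derived from human embryonic kidney and expressing the large T antigen of the virus SV40, with no treatment named in the labels. RNA immunoprecipitation with sequencing (RIP-seq) was run as 2 experiments, RIP-1 and RIP-2, each with an anti-SF3B4, an IgG and an input library, 6 libraries in all; whether the experiments used separate cultures is not stated. The deposited files give 1 set of peaks per experiment, in a stranded list under the name mRNA and an unstranded list under the name NotExon, here the non-exon list; no source used here says how peaks were assigned to them. IgG and input stand behind the calls in a way that the sources used here do not give, library depth is unknown, and a list has no replicate error, so values of RIP-1 and RIP-2 carry no test of their difference. Shares have 95% Wilson intervals, for counting error alone and as if peaks were independent.

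The gene density of the stretch itself was not measured, since no annotation of hg19 was used here and only values for whole chromosomes can be given. In the RefSeq table for the assembly GRCh38.p14, chromosome 19 carried 1451 protein-coding genes, 7.24% of those on 24 chromosomes. Its 24.8 protein-coding genes per Mb ranked 1 among them, against a median of 5.68. That table is of another build than the peaks, so it was used for whole chromosomes only and no peak was given a gene name. The stretch is not all of the chromosome before its widest interval without peaks. That interval, without a peak in any list, ran over 3.11 Mb from 24626082 to 27731897, and in the 4.83 Mb between the stretch and that interval the RIP-1 mRNA list had 3 peaks and the RIP-2 non-exon list had 136.

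In RIP-1 the stretch held more peaks of the mRNA list than each window of its length that was counted. The RIP-1 mRNA list held 16.6 peaks per Mb in the stretch, against 3.46 per Mb in the rest of the series, 4.81 times as many. The part of chromosome 19 beyond the wide interval without peaks had 10.6 per Mb. The gene-rich chromosomes 17 and 22 had 8.04 and 5.29 over their whole lengths, here and in the lists below. The genome was cut into 143 windows as long as the stretch, from the start of each chromosome, which leaves out what remains at its far end. The stretch had 329 peaks, against at most 197 in the other windows, on chromosome 17. Chromosome 22 was uneven, with 22 peaks in its first window and 127, or 6.41 per Mb, in its second. Its whole-length values therefore join a sparse and a denser part. When the windows were counted from the far end, a setting added after the data were seen, the highest of 142 was the last window of chromosome 19 itself with 271, also below the stretch. In the same list 3.0% of the peaks (95% CI 2.70 to 3.34) lay in the stretch.

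The RIP-1 non-exon list was also dense there, by a smaller factor. It had 15.4 peaks per Mb in the stretch, against 8.29 in the rest of the series, which is 1.86 times as many. In this list chromosome 19 beyond the wide interval without peaks had 12.05 per Mb, and chromosomes 17 and 22 had 11.99 and 8.67. With 305 peaks the stretch again ranked 1 of 143 windows, but the next window, on chromosome 3, was close with 299. The second window of chromosome 22 ranked 3 with 270, or 13.6 per Mb, while its first had 39. Counted from the far end, the highest had 300, also on chromosome 3, and the last window of chromosome 19 had 283.

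The RIP-2 mRNA list had 5.20 peaks per Mb in the stretch, against 3.31 in the rest, 1.57 times as many. Its 103 peaks ranked 18 of 143 windows, and 19 windows counted from the far end had more, the last of chromosome 19 among them with 128. The part of chromosome 19 beyond the wide interval without peaks had 5.70 per Mb in this list, more than the stretch. Chromosomes 17 and 22 had 4.92 and 3.57. The second window of chromosome 22 had 114 peaks, or 5.76 per Mb, more than the stretch, while its first had 22. The RIP-2 non-exon list went the other way, with 28.6 peaks per Mb in the stretch, against 43.4 in the rest, 0.659 times as many. Its 567 peaks ranked 128 of 143 windows, against a median of 855.5 in the others, and 130 of the 142 windows counted from the far end had more. The rest of chromosome 19 was also sparser than the rest of the series in this list, with 32.8 per Mb. Chromosomes 17 and 22 had 45.1 and 42.4. The second window of chromosome 22 had 1360 peaks, or 68.7 per Mb, while its first had 238. So 3 of the 4 lists were denser in the stretch than in the rest of the series and 1 was sparser.

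**Figure D1:**
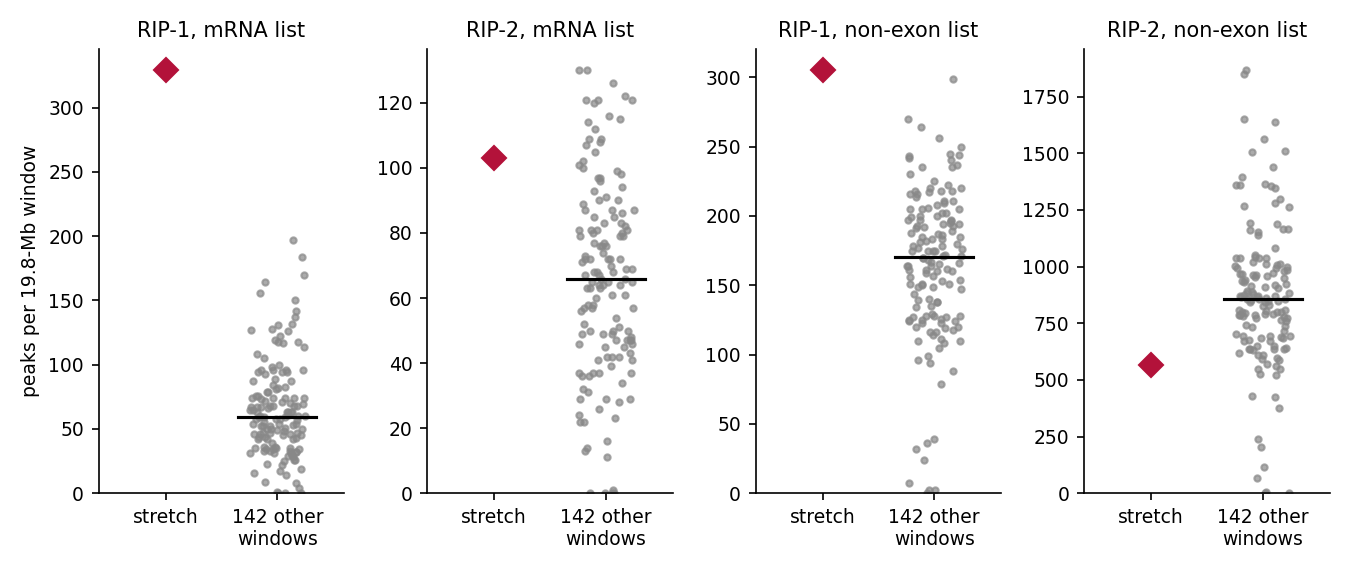
Peaks per window as long as the stretch in each list (vertical axis, a scale of its own in each panel); the red diamond is the stretch, grey points are the 142 other windows counted from the chromosome starts, spread sideways only for visibility, and the black bar is their median. The stretch stands above every window drawn in both RIP-1 lists (329 and 305 peaks), in the upper part for the RIP-2 mRNA list (103) and low for the RIP-2 non-exon list (567).

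Although the experiments differed in how many peaks they had in the stretch, in both the mRNA list made up a larger share of the peaks there than in the rest. In RIP-1, 329 of the 634 peaks of the stretch were on the mRNA list (51.9%, 95% CI 48.0 to 55.8), against 29.4% in the rest of the series (95% CI 29.0 to 29.9). In RIP-2, 103 of 670 were (15.4%, 95% CI 12.8 to 18.3), against 7.08% in the rest (95% CI 6.95 to 7.22). Within each experiment the intervals of the stretch and the rest did not overlap. The share beyond the wide interval without peaks was 46.8% for RIP-1, with 13.4% for RIP-2, values that also lay above those of the rest of the series.

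The peaks were not evenly spread along the stretch. In 20 windows of 1 Mb, the last slightly shorter, the RIP-1 mRNA list had from 6 to 34 peaks with a median of 16. Its fullest window was that from 4 to 5 Mb with 34, then from 1 to 2 Mb with 26 and from 11 to 12 Mb with 24. Its emptiest were from 9 to 10 Mb with 6, from 8 to 9 Mb with 7 and from 15 to 16 Mb with 8. The RIP-1 non-exon list shared 2 of the fullest windows: it had 25 peaks from 11 to 12 Mb and 24 from 4 to 5 Mb, and another 24 from 10 to 11 Mb. It had the fewest, 6, from 14 to 15 Mb, then 7 from 13 to 14 Mb and 9 from 9 to 10 Mb. Over the 20 windows the RIP-1 lists had a Spearman rho of 0.701, given as a description, since both lists come from 1 call and neighbouring windows resemble each other.

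In RIP-2 the profile had another shape. Its mRNA list had 17 peaks from 9 to 10 Mb, the window where RIP-1 had the fewest, then 12 from 4 to 5 Mb and 8 from 14 to 15 Mb. The lowest number, 3, was reached in 7 windows. The RIP-2 non-exon list had the most, 45, in the first Mb next to the chromosome end, then 41 from 5 to 6 Mb and 36 from 6 to 7 Mb. It had the fewest, 10, in the window from 1 to 2 Mb, then 19 from 18 to 19 Mb and 21 from 2 to 3 Mb. Between RIP-1 and RIP-2 the rho over windows was -0.04 in the mRNA lists, and the non-exon lists had 0.18. RIP-1 had more mRNA-list peaks than RIP-2 in 19 of the 20 windows, and RIP-2 had more non-exon peaks in 18.

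**Figure D2:**
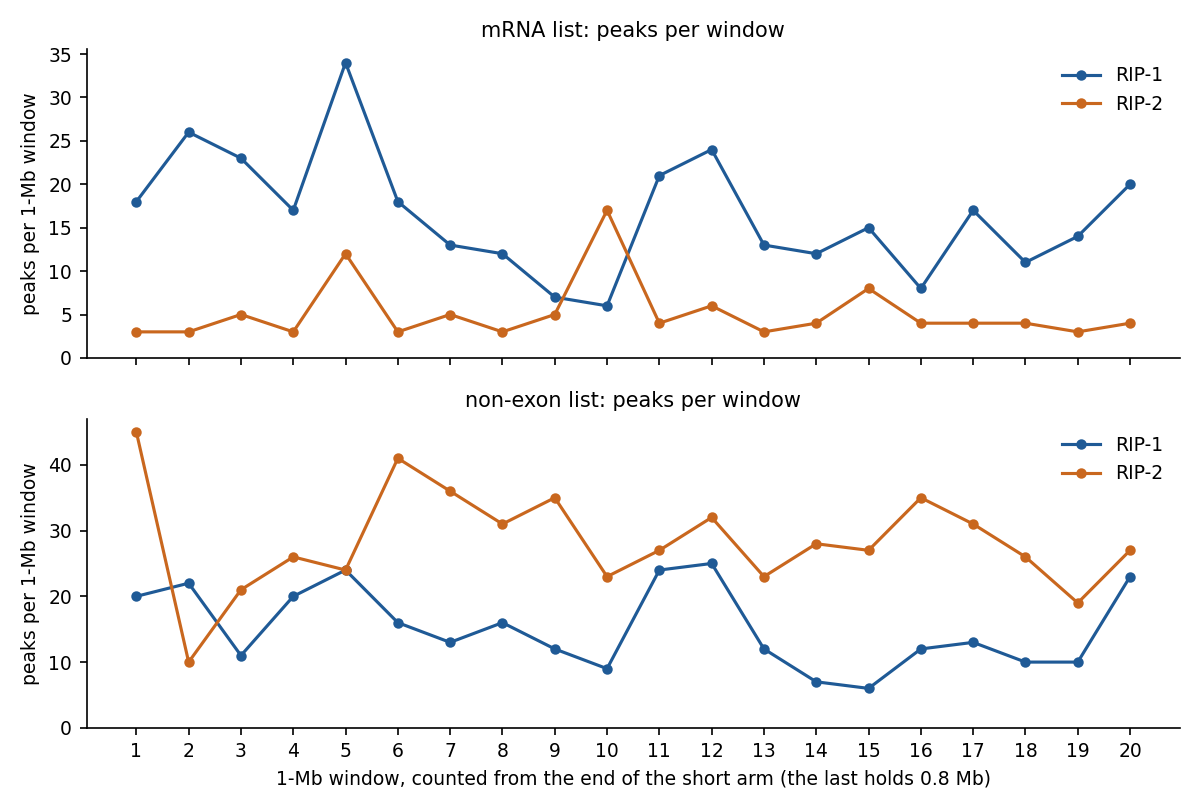
Peaks per window of 1 Mb along the stretch (horizontal axis, windows 1 to 20 from the tip of the short arm), for the mRNA lists (upper panel) and the non-exon lists (lower panel) of RIP-1 (blue) and RIP-2 (orange). RIP-1 leads in the mRNA lists except in window 10, where RIP-2 has 17 peaks and RIP-1 6; RIP-2 starts its non-exon list with 45 peaks in window 1.

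The window from 9 to 10 Mb was read peak by peak, a choice made after its count was seen. Of its 17 RIP-2 mRNA-list peaks, 15 lay on the minus strand. A row of 9 of them, all on the minus strand, was spread over 88.7 kb from 9002162 to 9090863, with widths of 26 to 1117 bp and scores of 50.97 to 168. The score, deposited by the authors, behaves as the peak caller's p on a negative log10 scale multiplied by 10. Scores and fold enrichments throughout are the authors' values. RIP-1 had 1 mRNA-list peak inside this row, from 9024965 to 9024998 on the same strand, with a score of 51.5. None of the 9 RIP-2 peaks overlapped it.

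Strand in the stretch was close to even in RIP-1. In RIP-2 fewer peaks lay on the plus strand than on the minus strand, with an interval that includes an even split. On the plus strand lay 178 of the 329 RIP-1 peaks of the mRNA list (54.1%, 95% CI 48.7 to 59.4), against 51.1% in the rest. Of the RIP-2 peaks 43 of 103 did (41.7%, 95% CI 32.7 to 51.4), against 51.9% in the rest. Without the window from 9 to 10 Mb the RIP-2 value was 47.7% (41 of 86, 95% CI 37.4 to 58.1), an interval that includes the value of the rest. Close neighbours mostly shared a strand. Of the RIP-1 neighbours in the mRNA list with at most 10 kb between them, 114 of 124 pairs were on the same strand in the stretch (91.9%), against 94.5% in the rest. In RIP-2 this was 17 of 17 pairs, against 96.7% in the rest. Among neighbours farther apart the same-strand share was 69.6% in the stretch for RIP-1 and 58.8% for RIP-2, against 65.3% and 65.4% in the rest.

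RIP-1 non-exon peaks of the stretch were wider than those of the rest of the series. The median width of RIP-1 non-exon peaks was 933 bp in the stretch (interquartile range 646 to 1537), against 708 bp in the rest (552 to 1003). Other gene-rich parts lay between these values, with medians of 820.5 bp in the rest of chromosome 19, 830 bp on chromosome 17 and 808 bp on chromosome 22. Widths of 2000 bp or more were found in 52 of 305 members (17.05%, 95% CI 13.2 to 21.7), against 6.45% in the rest (95% CI 6.16 to 6.76). The difference was also seen among peaks of like score. Between scores of 50 and 100 the median was 768 bp in the stretch (203 peaks), against 675 bp in the rest. Between 100 and 200 it was 1352.5 bp (64 peaks), against 941 bp.

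RIP-1 mRNA-list segments had a median of 261 bp in the stretch (interquartile range 143 to 609), against 215 bp in the rest (135 to 595). Segments under 80 bp made up 6.69% in the stretch and 6.55% in the rest, and those of 1000 bp or more 12.5% and 13.2%. Among segments of like score the direction varied, with medians of 227 bp in the stretch and 192 bp in the rest between scores of 50 and 100, 244.5 and 245 bp between 100 and 200, and 386 and 506 bp at 200 or more. The rest of chromosome 19 had a higher median than the stretch, 305.5 bp.

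In RIP-2 the widths of the stretch were near those of the rest. Non-exon peaks had a median of 549 bp in the stretch (interquartile range 418.5 to 737), against 565 bp in the rest (437 to 735). Those of 2000 bp or more made up 1.41% and 1.39%. RIP-2 segments of the mRNA list had a median of 173 bp in the stretch (92 to 422), against 160 bp in the rest (104 to 322). There were more short ones, with 21 of 103 under 80 bp (20.4%, 95% CI 13.7 to 29.2), against 14.3% in the rest (95% CI 13.7 to 15.03), intervals that overlap.

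**Figure D3:**
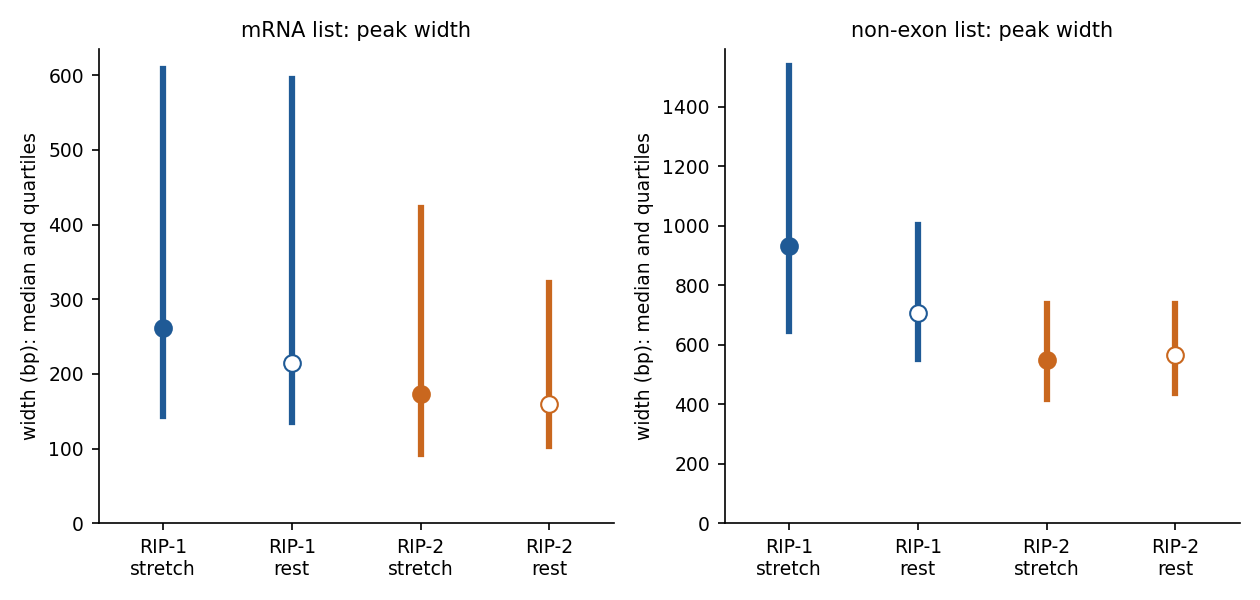
Width of peaks in bp (vertical axis) in the stretch (filled points) and in the rest of the series (open points), for RIP-1 (blue) and RIP-2 (orange); points are medians and bars run between the quartiles. The clearest gap is in the RIP-1 non-exon list, with 933 bp in the stretch and 708 bp in the rest.

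The widest RIP-1 members were long blocks. The widest non-exon peak ran over 6188 bp from 1268977 to 1275164 with a score of 577, a fold enrichment over the control of 7.56 as deposited, and a false discovery rate (FDR) of 4.02%. The next ran over 5958 bp from 11029107 to 11035064, with a fold enrichment of 6.26. The last of the 3 ran over 4943 bp from 8549342 to 8554284, with a fold enrichment of 6.02. In the RIP-1 mRNA list the 3 widest were on the minus strand: 3789 bp from 14258638 to 14262427, 2790 bp from 6210391 to 6213181 and 2788 bp from 2428162 to 2430950, with scores of 475, 126 and 805.

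RIP-2 reached shorter lengths. Its widest mRNA-list segments were 1595 bp from 9720093 to 9721688 on the minus strand, 1117 bp from 9066519 to 9067636 on the minus strand and 975 bp from 2251097 to 2252072 on the plus strand. Its widest non-exon peaks were 2511 bp from 2175127, 2348 bp from 2347047 and 2309 bp from 8052673.

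Strong peaks were more frequent in the stretch than in the rest of the series in both RIP-1 lists, while the intervals of the stretch and the rest of chromosome 19 overlapped. Among RIP-1 mRNA-list members 67 of 329 scored at least 200 (20.4%, 95% CI 16.4 to 25.05), against 11.4% in the rest (95% CI 10.8 to 12.01). Among RIP-1 non-exon peaks it was reached by 38 of 305 (12.5%, 95% CI 9.21 to 16.6), against 2.19% in the rest (95% CI 2.02 to 2.38). In the rest of chromosome 19 the RIP-1 shares were 21.1% for the mRNA list (71 of 336, 95% CI 17.1 to 25.8) and 9.55% for the non-exon list (38 of 398, 95% CI 7.04 to 12.8). In RIP-2 the shares were 2.91% for the mRNA list (95% CI 0.995 to 8.22), against 5.77% in the rest, and 5.82% for the non-exon list (95% CI 4.17 to 8.06), against 5.04% in the rest. In RIP-2 the interval of the non-exon share included the value of the rest, and so did that of the mRNA list. Median scores of RIP-1 were 93.5 in the stretch, against 79.5 in the rest, for the mRNA list and 80.8, against 66.8, for the non-exon list. In RIP-2 they were 82.0, against 79.6, and 81.1, against 80.6.

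Fold enrichment was not higher along with the RIP-1 scores. The median fold enrichment of RIP-1 non-exon peaks was 6.44 in the stretch (interquartile range 5.26 to 7.67), against 6.55 in the rest (5.39 to 7.68). At scores of 200 or more it was 8.49 in the stretch (38 peaks), against 10.1 in the rest. In RIP-2 the medians were 7.85 and 8.19.

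**Figure D4:**
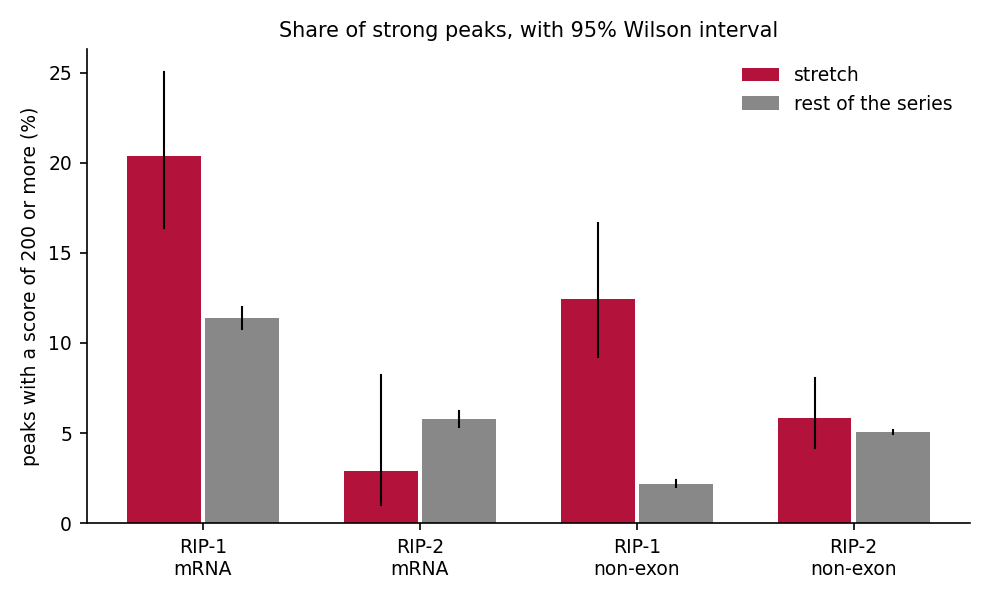
Share of peaks with a score of 200 or more, in percent (vertical axis, from 0), in the stretch (red) and in the rest of the series (grey), for each list; black lines are 95% Wilson intervals. The stretch exceeds the rest in both RIP-1 lists (20.4% against 11.4%, and 12.5% against 2.19%), while the intervals of the RIP-2 lists include the value of the rest.

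By the FDR in the RIP-1 non-exon list, 8 of the 305 members had 5% or less (2.62%, 95% CI 1.33 to 5.09), where over the whole list 0.678% had. An FDR of 100% was given to 80.3% of the members, against 94.2% in the rest. The 8 lay at 7 places from 963910 to 13052443, 2 of them within 10 kb of each other. RIP-2 members had no FDR under 68.3%, and 42.9% had one of 100%, against 41.6% in the rest. Among the RIP-2 non-exon members that overlapped a RIP-1 peak, the FDR was 68.4% at the lowest score, 50.2. It was 100% at each score of 155 or more, so there the value of 100% went with the higher scores.

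The 5 strongest RIP-1 members of the mRNA list lay between 91.0 and 334 kb from the nearest RIP-2 peak of that list. Over all 329 RIP-1 members of the list the median distance was 103 kb (interquartile range 51.0 to 186), and 2 overlapped a RIP-2 peak. Both peaks at 3100, a value that recurs among the strongest peaks, were a plus-strand segment of 778 bp from 13054526 to 13055304 and a minus-strand segment of 692 bp from 3976053 to 3976745. The nearest RIP-2 mRNA-list peaks lay 286 and 242 kb away. The next were plus-strand segments of 2187 bp from 7977181 to 7979368 (score 2927), of 2172 bp from 1085658 to 1087830 (score 1660) and of 313 bp from 16187194 to 16187507 (score 1265). Their nearest RIP-2 peaks lay 91.0, 278 and 334 kb away. The first of the 5 was part of a chain: a non-exon peak of 3277 bp from 13049167 to 13052443, also with a score of 3100, lay just before it, with a fold enrichment of 8.13 and an FDR of 2.53%.

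The RIP-2 members of the mRNA list with the highest scores were weaker. They were a minus-strand segment from 5894685 to 5895414 (score 265), a plus-strand segment from 14829262 to 14829981 (242), a plus-strand segment of 56 bp from 2199882 to 2199938 (202), a minus-strand segment from 18321871 to 18322086 (192) and a plus-strand segment from 9296650 to 9297007 (182). The second of them overlapped a RIP-1 peak. The others lay between 14.6 and 138 kb from the nearest one.

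The highest RIP-1 fold enrichment in the stretch came from 1 place. The first 3 of the 5 highest lay from 3052837 to 3062698, with fold enrichments of 35.7, 30.4 and 22.1 and scores of 3100, 1268 and 1074. That span of 9.86 kb held 5 non-exon peaks and no peak of the mRNA list. The other 2 were a peak of 4738 bp from 4356665 to 4361402 with a fold enrichment of 15.98, and 1 of 1132 bp from 4028046 to 4029177 with 13.96. The nearest RIP-2 non-exon peak to any of these 5 was between 23.8 and 45.3 kb away, where over all 305 RIP-1 non-exon members the median was 20.5 kb (interquartile range 5.91 to 43.0).

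In RIP-2 the 5 highest fold enrichments lay apart from each other, and each had an FDR of 100%, as did 42.9% of all RIP-2 non-exon members. They were 27.95 from 15692163 to 15692753, 23.1 from 8295627 to 8296240, 22.2 from 6597875 to 6598591, 22.2 from 10142591 to 10143243 and 21.2 from 9733867 to 9734549. Their widths were 591 to 717 bp, and the nearest RIP-1 non-exon peaks lay between 4.40 and 90.1 kb away.

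Spacing differed between the experiments. The median distance between a RIP-1 mRNA-list peak and the nearest of its list was 6.22 kb in the stretch, against 15.4 kb in the rest. In RIP-2 it was 48.3 kb in the stretch, against 21.2 kb in the rest. A RIP-1 non-exon peak had an mRNA-list peak of the same experiment within 1 kb in 6.89% of the members (21 of 305, 95% CI 4.55 to 10.3), against 1.44% in the rest (95% CI 1.30 to 1.59). In RIP-2 this was 0.705% (4 of 567, 95% CI 0.275 to 1.80), against 0.588%. The RIP-1 mRNA list was itself 4.81 times as dense in the stretch as in the rest, and the part of this in the RIP-1 share was not tested. The RIP-1 lists were denser in the stretch than in the rest and their distances shorter, while the RIP-2 mRNA list was denser and its distance longer.

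When peaks of both lists with at most 5 kb between them were joined into chains, RIP-1 had 11 chains of 5 or more peaks and RIP-2 had 7. Of the 11, 9 held both kinds of peak, 1 held 5 mRNA-list peaks alone (860860 to 875454) and 1 held 5 non-exon peaks alone (3052837 to 3062698). Of the 4 chains of 6 peaks, that from 3490848 to 3500824 held 4 minus-strand mRNA-list peaks and 2 non-exon peaks, that from 11546861 to 11562139 held 3 plus-strand and 3 non-exon, and that from 16187194 to 16204563 held 4 plus-strand and 2 non-exon. The remaining one, from 958978 to 976302, held 1 and 5. In RIP-2, 5 of the 7 held non-exon peaks alone. The largest held 10 non-exon peaks each, from 75581 to 98188 near the chromosome end and from 6079835 to 6110277, and 8 followed from 8859664 to 8884705. Chains holding both kinds of peak numbered 63 for RIP-1, with 23 for RIP-2. Of the chains with at least 2 mRNA-list peaks, 48 of 57 in RIP-1 and 13 of 13 in RIP-2 had them on a single strand. These chain counts are for the stretch alone, with no value for the rest of the series. RIP-1 had 329 mRNA-list members to join and RIP-2 had 103, and the part of this in the counts was not tested.

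Overlap of the experiments in the stretch was rare, although the design text of the series gives the repeat as a way to set aside non-specific reads. A member was shared when it overlapped a peak of the other experiment's list of the same kind by at least 1 bp, with equal strand in the mRNA lists. In the mRNA lists 2 of 329 RIP-1 members were shared (0.608%, 95% CI 0.167 to 2.19), where the whole list had 6.41%. Of the RIP-2 members 2 of 103 were shared (1.94%, 95% CI 0.534 to 6.81), where the whole list had 6.91%. In the rest of chromosome 19 the RIP-1 share was 2.68% (9 of 336, 95% CI 1.42 to 5.01), and on chromosomes 17 and 22 it was 4.90% and 2.58%. The interval of the RIP-1 members lay below the value of the whole list and overlapped those of the rest of chromosome 19 and of chromosome 22.

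Both shared mRNA-list pairs were on the plus strand. One had the same edges in both experiments, from 4318342 to 4318502, where RIP-1 scored 142 and RIP-2 scored 53.9. In the other a RIP-1 segment of 1527 bp from 14829039 to 14830566 (score 51.0) contained the RIP-2 segment of 719 bp from 14829262 to 14829981 (score 242). In each pair 1 experiment scored near the floor of 50.

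In the non-exon lists 18 of 305 RIP-1 members were shared (5.90%, 95% CI 3.77 to 9.13), where the whole list had 18.1%. Of the RIP-2 members 17 of 567 were shared (3.0%, 95% CI 1.88 to 4.75), where the whole list had 3.63%, a value inside the interval. The RIP-1 share was 9.55% in the rest of chromosome 19 (95% CI 7.04 to 12.8) and 16.3% on chromosome 17. RIP-2 non-exon peaks covered 1.83% of the stretch, against 2.82% of the rest, and the part of this in the lower share was not tested.

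As a level to read these counts against, all RIP-2 members were moved together by 20 fixed distances, 1 to 10 kb in both directions, wrapping around inside the stretch. This gives a description and no p. For the non-exon lists the 18 shared RIP-1 members stood against a mean of 12.9 after moves, 1.40 times as many, and the moved counts ran from 4 to 19. In 2 of the 20 moves the count was as high as without a move or higher. In the rest of the series 4661 RIP-1 non-exon peaks were shared, against a mean of 2845 after the same moves and at most 3213, which is 1.64 times as many. For the mRNA lists the 2 shared members stood against a mean of 0.3 and at most 1 after moves. In the rest 701 were shared, against a mean of 71.9. With longer moves of 50 to 500 kb the non-exon mean in the stretch was 15.85 with a range of 9 to 23, and 7 of 20 moves reached 18 or more. With them the mRNA-list mean was 0.55 with a highest of 3, and 2 of 20 moves reached 2 or more. So the count of shared non-exon members lay within the range after moves, and that of the mRNA lists rested on 2 members.

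**Figure D5:**
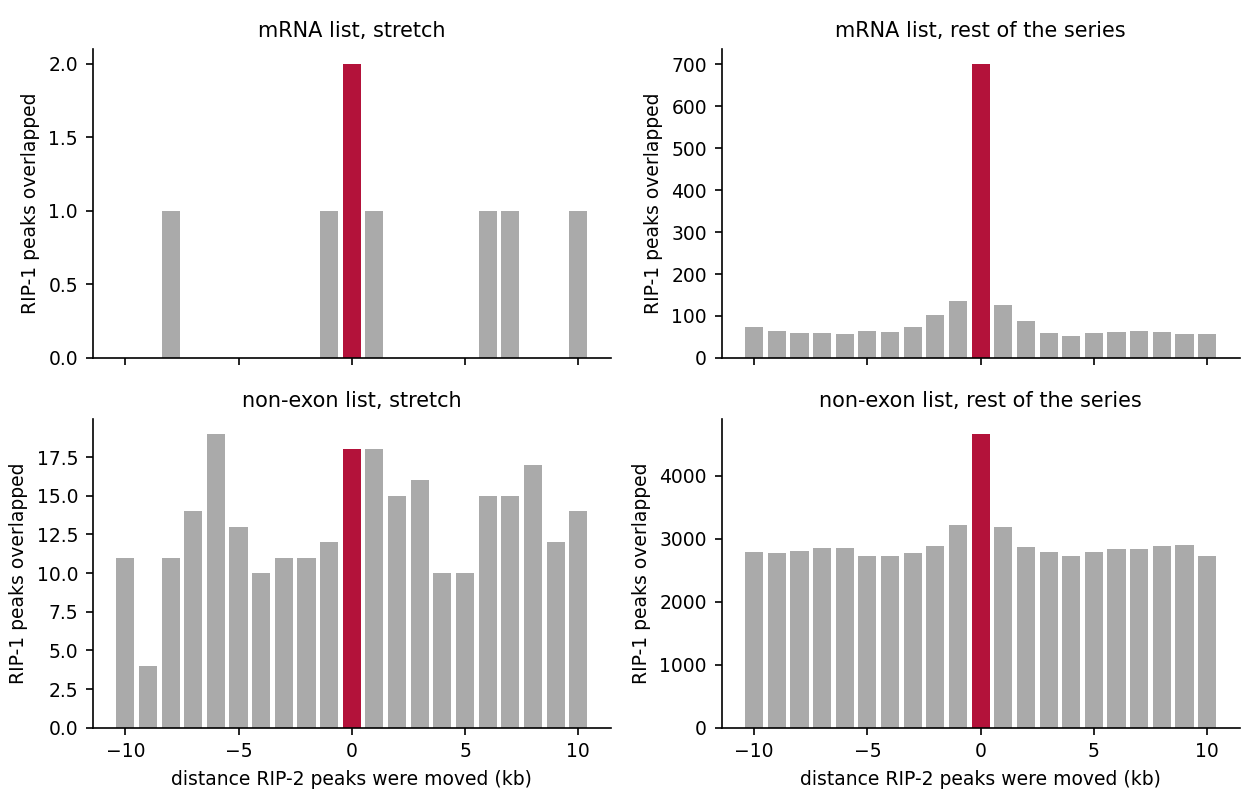
RIP-1 peaks overlapped by RIP-2 peaks (vertical axis, from 0, a scale of its own in each panel) after all RIP-2 peaks were moved by the distance on the horizontal axis in kb; the red bar at 0 is the count without a move. Left panels show the stretch, right panels the rest of the series; in the rest the red bar stands clear of all others (701 and 4661), while in the stretch the non-exon count of 18 is met or passed by 2 of the 20 moves.

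The 18 shared non-exon pairs overlapped by a median of 485.5 bp (4 to 1239 bp), and in 12 of them the overlap was at least 50% of the longer peak. The closest match was RIP-1 from 5576563 to 5576984 and RIP-2 from 5576563 to 5576978, which covered 98.6% of the longer peak, with scores of 166 and 245 and fold enrichments of 6.67 and 5.68. Next came RIP-1 from 11179790 to 11180300 with RIP-2 from 11179838 to 11180390 (83.7% of the longer), and RIP-1 from 11064906 to 11065264 inside RIP-2 from 11064851 to 11065342 (73.0%). In the 83.7% pair RIP-1 had a fold enrichment of 6.57 and RIP-2 one of 6.75, and in the 73.0% pair RIP-1 had 7.46 and RIP-2 had 8.67. No shared pair involved the strongest peaks of RIP-1, since RIP-1 scores among the 18 ended at 166, while RIP-2 scores ended at 373. Of all 305 RIP-1 non-exon members 38 (12.5%) scored 200 or more, so 18 pairs say little about them. Over the pairs the median fold enrichment of the RIP-1 peaks was 5.59 and that of the RIP-2 peaks 8.85. Across the pairs the fold enrichments of both experiments had a Spearman rho of -0.37 and the scores one of 0.42, described over 18 pairs of which 2 use the same RIP-2 peak.

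RIP-1 members lay farther from the other experiment than RIP-1 peaks of the rest did, counted over all peaks with the overlapping ones at 0 and without regard to strand. The nearest RIP-2 mRNA-list peak was a median of 103 kb from a RIP-1 member of that list, against 53.8 kb in the rest of the series. For RIP-1 non-exon members the median was 20.5 kb, against 4.42 kb in the rest. Seen from RIP-2 the stretch was closer to the rest, with medians of 37.5 kb, against 41.0 kb, in the mRNA list and 30.2 kb, against 33.1 kb, in the non-exon list.

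Nearness was also counted by strand. Within 5 kb of a RIP-1 mRNA-list member on the same strand lay 7 of the 103 RIP-2 members, and on the opposite strand 0. After the moves of 50 to 500 kb the means were 6.8 on the same strand (1 to 12) and 7.05 on the opposite strand (2 to 17). Within 10 kb the counts were 15 on the same and 1 on the opposite strand, against 11.25 (6 to 19) and 11.6 (5 to 21) after moves. So the same-strand counts lay inside the range after moves, and the opposite-strand counts lay below it, at these distances. Closer by, the opposite-strand count of 0 lay inside the range, which was 0 to 4 within 1 kb and 0 to 2 for overlap. The same-strand counts there, 3 and 2, also lay inside theirs (0 to 6 and 0 to 3). Strand was not counted this way in the rest of the series or with the moves of 1 to 10 kb.

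No member of one kind of list overlapped a member of the other kind, within or between the experiments. In the whole series this was also so within each experiment. Between them 18 of 10960 RIP-1 mRNA-list peaks met a RIP-2 non-exon peak and 22 of 25797 RIP-1 non-exon peaks met a RIP-2 mRNA-list peak. The way peaks were split into the lists may fix such counts in advance, and no level from moves was taken for them, so nothing is concluded from them.

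The peaks at the edge of the stretch were these. The last RIP-1 mRNA-list member ended at 19744999 (score 127), and the next peak of that list began only at 20989358 (score 59.8). In the RIP-2 mRNA list the last member ended at 19738155 (score 59.3) and the next began at 19825169 (score 72.2). In the non-exon lists the last RIP-1 member scored 60.8 and the first peak outside 66.3, while the last RIP-2 member scored 53.3 and the first peak outside 153.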

How the data were processed

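RIP-seq of wild-type HEK293T cells gave 6 libraries in 3 groups. Per the labels' protocols, ribosomal RNA was removed and paired reads of 150 bp were sequenced. Per the submitters' processing notes, cutadapt 1.9.3, HISAT2 2.0.4 and the build hg19 were used. The authors deposited peaks per experiment, not pooled, with names carrying the MACS prefix; its version, settings and control library: not given in the sources used here. The lists have no header: the deposited score behaves as 10 times the negative log10 of p, and the other deposited columns of the non-exon lists were read by their order and values as length, fold enrichment (a ratio) and FDR in percent. Positions of the non-exon lists are 1-based and include both ends; the base of the mRNA lists is unknown, so their edges are uncertain by 1 bp. Mb lengths are the highest peak end per chromosome in any list. Python 3.11.15, pandas 2.3.3 and scipy 1.17.1 were used, and the overlap count was tested on made-up intervals. Peaks named are the shared mRNA-list pairs, the 5 highest scores or fold enrichments, the 3 widest, the 3 closest non-exon pairs, the 3 fullest and emptiest windows, and the peaks at the edge; other peaks, spans and chains were chosen after their values were seen. The stretch and the measures were chosen with earlier results of these data known. Depth is unknown. Sequence and gene annotation of hg19 were not used here.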

Additional observations from a re-analysis of the deposited data

How the results depend on the processing

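Of 30 alternative values, 21 stayed within 1.5 times the main value and 9 moved further. Only the densities over the rest and the factors over moved peaks have a direction, and none of these changed it. The counts of shared peaks and of windows have none. All 12 density values (upper end at 20 Mb, upper 50% by score, covered bases) and the 4 counts of windows with more peaks than the stretch were among the 21. Of the 2 shared mRNA-list members, 1 was left when the overlap had to reach 50% of each peak's length and 1 without the identical pair; 0 were left with the upper 50% by score and 0 with equal numbers of peaks, while 4 were counted with a gap of at most 1 kb, a setting added after the data were seen. Of the 18 shared non-exon members, 4 were left with the upper 50% by score and 6 with equal numbers, both by construction fewer peaks, and 33 were counted with the gap. The mRNA-list factor over moved peaks was 6.67 and became 3.64 with moves of 50 to 500 kb, for which no cause was tested. No paired analysis was possible because the lists hold 1 peak call for each experiment and no values by library, and leaving out a replicate would leave 1 list, with no overlap to count. Unknown depth limits every comparison of RIP-1 with RIP-2.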
